A study of Mus musculus with 6 samples.

Results

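Imprinted genes are expressed from only 1 of the parental copies, and the 10 described here are known regulators or marks of fetal growth: Igf2, H19, Dlk1, Peg3, Mest, Cdkn1c, Grb10, Igf2r, Plagl1 and Meg3. They were chosen by gene symbol. On the array, 15 probes name 1 of them alone, and these probes cover 9 of the 10 genes, out of 18507 named genes. Mest is reached only through a probe that the platform annotation shares between Mest and Copg2. Of the 16764 genes tested, 8 are among these imprinted genes, because the Peg3 probe was near background on every array.

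Total RNA was measured in the pylorus of mouse embryos collected at E18.5, late in gestation. Each piece was the distal stomach with 1 to 2 mm of gut on both sides of the pyloric narrowing. All embryos came from crosses of heterozygous Bapx1 CRE/+ mice and were sorted by genotype into those labelled knockout and their littermates labelled wildtype. Bapx1 is the older name of Nkx3-2, a homeodomain factor of gut and skeletal mesenchyme. There were 3 embryos labelled knockout and 3 labelled wildtype, with 1 embryo on each one-colour array. The leading digits of the animal codes match 1 knockout with 1 wildtype embryo and were taken as the litter, which gave litter pairs 1, 2 and 3. Each SE below is limma's moderated SE, in which a gene's spread between embryos is drawn toward that of all genes or probes in the fit. With 1 embryo on each array, this spread also holds differences between arrays.

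Most of these genes act on a common growth axis. Igf2, expressed from the paternal copy, encodes the main fetal insulin-like growth factor. Igf2r, expressed from the maternal copy, encodes the receptor that carries that factor to lysosomes for destruction. Grb10 and Cdkn1c are expressed from the maternal copy in most tissues. Grb10 dampens signalling from the insulin and IGF1 receptors, and Cdkn1c encodes a cyclin-dependent kinase inhibitor that stops the cell cycle. Plagl1, Peg3 and Mest are expressed from the paternal copy, the first 2 encoding zinc finger factors and Mest a protein of the hydrolase fold. Dlk1 encodes a transmembrane protein related to Notch ligands. H19 and Meg3 are maternally expressed long noncoding RNAs, H19 beside Igf2 on chromosome 7 and Meg3 beside Dlk1 on chromosome 12.

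In short, no imprinted growth gene passed the test between the groups, and 8 of 10 gave a clear signal at a probe of their own. Cdkn1c was the one with a higher value in the knockout array of all 3 pairs, as found in 11.5% of 15667 genes. At their brightest probes Igf2, Igf2r, Dlk1, Meg3 and Cdkn1c shared their lowest array, that of wildtype replicate 2. That array was the lowest for 18.3% of 15667 genes, and other probes of Dlk1 and Meg3 had their lowest values elsewhere. Plagl1 read higher in pair 1 than in pairs 2 and 3, a comparison that 44.5% of 16751 genes passed. The 2 probes of Grb10 ran in opposite directions between these arrays.

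The arrays of the whole series set these limits. Spots exceeded their local background by a median of 204 and 207 units on the arrays of pair 1, but by 109 to 131 units on the others, and 55 to 145 gene probes were saturated on an array. Per the file headers, the arrays of pair 1 were reported by the scanner software apart from those of pairs 2 and 3, and these 2 sets are called report batches below. Nkx3-2 read 7.73, 8.02 and 7.79 in knockout replicates 1, 2 and 3 and 7.47, 7.75 and 7.99 in the wildtype replicates, a log2 difference of 0.11 (SE 0.19, limma adjusted p = 1). The targeted gene thus did not read lower under the knockout label. Whether its probe lies in the part that the CRE allele alters is not stated in the labels, and the group names below are those of the labels. Smooth muscle, gastric epithelium, intestinal epithelium and stomach mesenchyme markers were above background at every marker probe that was summed. Over all 16764 genes, limma called 0 at an adjusted p under 0.05 (0%) and 189 at an unadjusted p under 0.05 (1.13%). With litter pair as a block these were 0 and 760 genes (4.53% at an unadjusted p under 0.05), and with report batch as a block 0 and 978 genes (5.83%).

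Values are log2 normalized intensities, and a difference is knockout minus wildtype on that scale. Levels of different genes are not set against each other, since probes differ in brightness. Igf2 was bright, with a spot 236 to 525 times its local background. It read 13.94, 14.17 and 14.07 in knockout replicates 1, 2 and 3 and 14.14, 13.72 and 13.90 in wildtype replicates 1, 2 and 3. The groups overlapped, and the whole span over 6 arrays was 0.45. The difference was 0.14 (SE 0.17, 95% interval -0.26 to 0.54, limma adjusted p = 1), with -0.20, 0.45 and 0.17 in pairs 1, 2 and 3. Within pairs 2 and 3 alone it was 0.31 (SE 0.13, limma adjusted p = 0.424). The authors' report lists this probe under a spermatogonial cDNA similar to a putative IGF-II associated protein, and the platform annotation assigns it to Igf2.

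Igf2r, the clearance receptor of the same factor, read 10.12, 10.79 and 10.41 in the knockout replicates and 10.43, 10.10 and 10.22 in the wildtype replicates. Knockout replicate 2 was the highest array, and the groups overlapped. The difference was 0.19 (SE 0.21, 95% interval -0.31 to 0.69, limma adjusted p = 1). It had the signs of Igf2 in every pair, with -0.31, 0.69 and 0.19, and was 0.44 within pairs 2 and 3 (SE 0.16, limma adjusted p = 0.37). A second probe, shared by Igf2r and the antisense gene Airn, was near background on 3 arrays and differed by 0.14 (SE 0.21).

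Cdkn1c, the growth-arresting inhibitor, showed the largest difference among the 6 genes measured on all arrays without full saturation. It read 14.08, 13.78 and 14.07 in the knockout replicates and 13.96, 13.28 and 13.61 in the wildtype replicates. The groups overlapped, because wildtype replicate 1 lay above knockout replicate 2. The spot was saturated in knockout replicate 1, so its value there is a lower bound. The difference was 0.36 (SE 0.21, 95% interval -0.15 to 0.87, limma adjusted p = 1), with 0.12, 0.51 and 0.46 in pairs 1, 2 and 3. A higher value in the knockout array of all 3 pairs was found in 11.5% of 15667 genes and in 1 of the 6 imprinted genes with every pair. None of these 6 had groups that did not overlap, where 2.23% of genes did so with higher and 1.16% with lower knockout values. Fitted with a block for litter pair, the difference was 0.36 (SE 0.13, unadjusted p = 0.0323, limma adjusted p = 1), and within pairs 2 and 3 it was 0.48 (SE 0.17, limma adjusted p = 0.353). On the authors' median-scaled intensities Cdkn1c stood at 130, 102 and 116 in the knockout replicates and at 107, 66.4 and 77.4 in the wildtype replicates, in the same order within each pair.

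**Figure D1:**
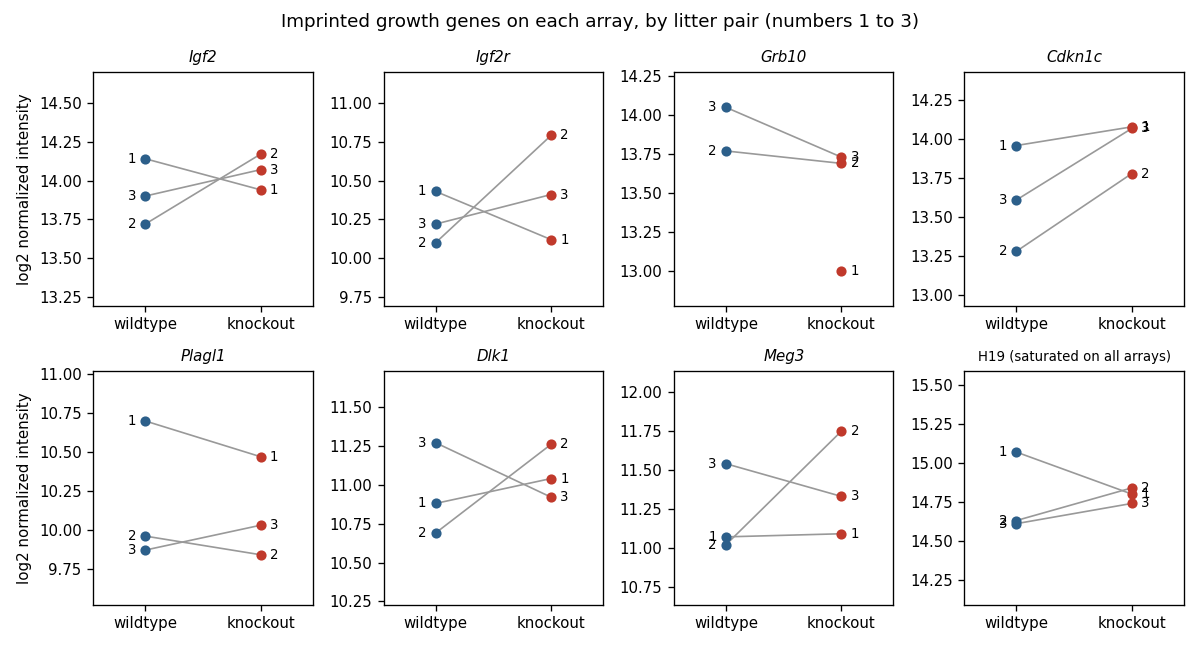
Log2 normalized intensity (y axis) of 8 imprinted growth genes on each array, wildtype on the left and knockout on the right of each panel, each at its brightest probe. Lines join the arrays of a litter pair, whose number stands beside each point, and all panels span the same height of 1.5 log2 units. Cdkn1c is the panel where all 3 lines run upward. Grb10 lacks wildtype replicate 1, and H19 was saturated on every array.

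Dlk1 and Meg3, neighbours in 1 imprinted region, had the same lowest array at their brightest probes. Dlk1 read 11.04, 11.26 and 10.92 in the knockout replicates and 10.88, 10.69 and 11.27 in the wildtype replicates, a difference of 0.12 (SE 0.20, limma adjusted p = 1). Its pairs gave 0.16, 0.57 and -0.36, so pair 3 went the other way. Meg3 read 11.09, 11.75 and 11.33 against 11.07, 11.02 and 11.54, a difference of 0.18 (SE 0.24, limma adjusted p = 1), with 0.02, 0.72 and -0.21 in the pairs. At these probes the groups overlapped for both genes, and both gave their largest pair difference in pair 2. The intervals were -0.35 to 0.60 for Dlk1 and -0.38 to 0.74 for Meg3. Their other probes did not repeat the pair 2 difference. The second Dlk1 probe gave 0.74, -0.36 and -0.32 in pairs 1, 2 and 3. The other Meg3 probes gave 0.03, -0.09 and 0.13 in pair 2.

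H19, the noncoding RNA beside Igf2, was too bright for its main probe, which was saturated on all 6 arrays with spots 511 to 630 times the local background. No fold is given for it. The other H19 probe was unsaturated and read 11.06, 12.69 and 11.90 in the knockout replicates and 12.53, 9.86 and 11.91 in the wildtype replicates. The groups overlapped, and the pair differences were -1.46, 2.83 and -0.02. Its span of 2.83 was the widest of the 15 probes. The authors' report lists it under a spermatogonial cDNA similar to a 5′ open reading frame, and the platform annotation assigns it to H19. It differed by 0.45 (SE 0.74, limma adjusted p over all probes = 1).

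Peg3 was listed near background on all 6 arrays, with a spot 1.27 to 1.39 times its local background. It was not well above background, and no fold is given. Mest could be read only through the probe shared with Copg2, a neighbouring gene, and the authors' report describes that cDNA as mesoderm specific transcript. This shared probe read 9.50, 9.92 and 9.55 in the knockout replicates and 9.60, 9.73 and 9.90 in the wildtype replicates, a difference of -0.08 (SE 0.18). The groups overlapped, and the probe is counted for neither gene.

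**Figure D2:**
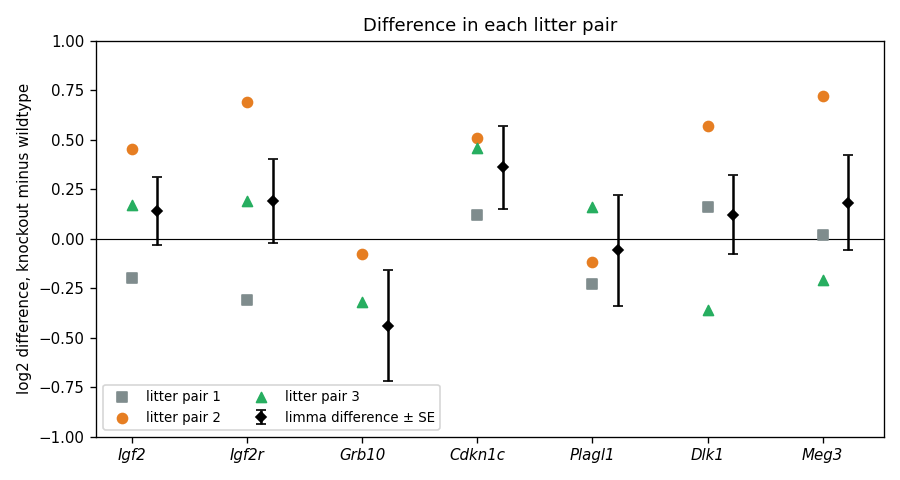
Log2 difference, knockout minus wildtype, of the 7 imprinted growth genes with a measured difference (x axis) in each litter pair (coloured symbols), with the limma difference and its SE (black diamonds). Each gene is shown at its brightest probe. Pair 2, in orange, is above 0 for 5 of the 7 genes, and for those 5 it is the largest of the pairs. Grb10 has no value in pair 1.

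Over the 7 genes with a measured difference, 5 were higher and 2 lower in the knockout arrays, with a median of 0.14 beside -0.01 over all genes tested. The median differed between pairs, at -0.09 in pair 1 (6 genes), 0.51 in pair 2 and 0.16 in pair 3, where all genes tested gave 0.02, -0.02 and -0.02. The median absolute difference in pair 2 was 0.51 over these genes at their brightest probes. It was 0.20 over all genes tested and 0.22 over the 4261 genes with a mean of at least 10. The cause of the pair 2 value was not tested. In pair 2, 11.8% of those 4261 bright genes lay at or above the Igf2 difference. Without wildtype replicate 2 the median over the 7 genes was 0.04, with Grb10 at its second probe. Without knockout replicate 2 the median was 0.03.

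The array of wildtype replicate 2 held the lowest value of 5 of the 6 genes with 6 values, namely Igf2, Igf2r, Cdkn1c, Dlk1 and Meg3. The same array was the lowest for 18.3% of 15667 genes, and for 15.8% of the 4261 genes with a mean of at least 10. The count was also 5 of 6 on the authors' median-scaled intensities. These genes share that 1 embryo and 1 array, so they are not separate evidence of a difference. Other probes did not all follow: the second Dlk1 probe was highest there, at 9.28, and the 3 other Meg3 probes had their lowest values on other arrays. Without that array the differences were 0.04 for Igf2 (SE 0.19), 0.11 for Igf2r (SE 0.25) and 0.19 for Cdkn1c (SE 0.21). Those of Dlk1 and Meg3 were 0.00 (SE 0.22) and 0.08 (SE 0.27).

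**Figure D3:**
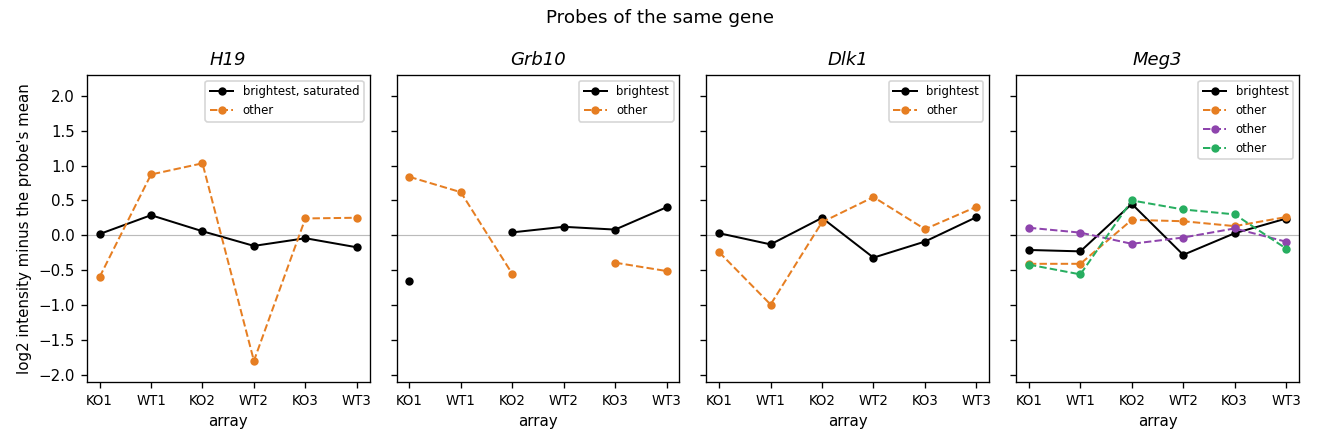
Log2 intensity minus the probe's own mean (y axis) on the 6 arrays (x axis, KO knockout and WT wildtype with the replicate number) for the 4 imprinted growth genes with more than 1 probe. Solid black lines are the brightest probe and dashed lines the others. The 2 Grb10 probes run in opposite directions between pair 1 and the other pairs. The second H19 probe is lowest on wildtype replicate 2, where it read 9.86 before its mean was subtracted.

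Pair 1 was also set against pairs 2 and 3, which differ from it in litter and in report batch. Plagl1, whose zinc finger product is known in mouse to regulate other imprinted genes, read 10.47 and 10.70 in the knockout and wildtype arrays of pair 1. In pairs 2 and 3 it read 9.84 and 10.03 in knockout and 9.96 and 9.87 in wildtype, so both arrays of pair 1 lay above all others. Pair 1 lay outside the range of the others in 62.2% of 15667 genes. Pairs 2 and 3 differed from pair 1 by -0.66 (SE 0.12, limma adjusted p = 0.00569, with the group label in the model). Between the groups Plagl1 differed by -0.06 (SE 0.28, 95% interval -0.73 to 0.60, limma adjusted p = 1). On the authors' median-scaled intensities it stood at 10.7 and 11.4 in pair 1 and at 5.59 to 6.40 in the others.

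Grb10 at its brightest probe read 13 in knockout replicate 1, 13.69 and 13.73 in knockout replicates 2 and 3, and 13.77 and 14.05 in wildtype replicates 2 and 3. Wildtype replicate 1 was flagged as contaminated and left out of the fit. The lone array of pair 1 was thus the lowest, and with 1 array no test of pair 1 is given for Grb10. The difference between the groups was -0.44 (SE 0.28, 95% interval -1.13 to 0.26, limma adjusted p = 1), with pair 1 entering through its knockout array alone. With report batch as a block it was -0.20 (SE 0.15, limma adjusted p = 0.954). The second Grb10 probe read 8.30 and 8.08 in pair 1 and 6.91, 7.07 and 6.95 in the other arrays that had a value, so it was higher where the first was lower. On the authors' median-scaled intensities the 2 probes also ran in opposite directions.

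Of the 6 imprinted growth genes with 6 values and without full saturation, 1, Plagl1, passed between pair 1 and the other pairs, where 44.5% of 16751 genes did. Litter, report batch and scan cannot be told apart here. The same test of Igf2, Igf2r, Dlk1, Meg3 and Cdkn1c gave limma adjusted p between 0.124 and 0.777.

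Promoter sequence of Plagl1 and Grb10 is shown because their arrays of pair 1 stood outside the others and because the RefSeq starts of Grb10 differ from each other. Each window holds 300 bases of GRCm38.p6, from RefSeq, running 5′ to 3′ along the gene. Capitals mark the hexamer TGCCGC or its reverse complement GCGGCA, the core that the imprint-keeping factor Zfp57 binds when its CpG is methylated.
Plagl1, chr10:13090582-13090881, plus strand: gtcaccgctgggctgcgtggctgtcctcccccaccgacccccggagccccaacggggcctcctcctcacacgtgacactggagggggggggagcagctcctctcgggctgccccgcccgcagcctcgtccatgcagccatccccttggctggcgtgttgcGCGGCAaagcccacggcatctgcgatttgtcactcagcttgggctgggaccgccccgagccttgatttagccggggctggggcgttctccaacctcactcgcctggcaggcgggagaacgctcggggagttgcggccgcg
Grb10 outer start, chr11:12037371-12037670, minus strand: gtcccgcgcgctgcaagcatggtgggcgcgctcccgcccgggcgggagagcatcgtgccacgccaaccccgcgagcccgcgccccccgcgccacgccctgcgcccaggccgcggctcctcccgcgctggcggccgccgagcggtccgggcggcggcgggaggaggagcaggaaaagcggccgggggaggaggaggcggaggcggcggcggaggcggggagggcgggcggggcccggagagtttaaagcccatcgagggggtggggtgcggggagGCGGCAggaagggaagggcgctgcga
Grb10 inner start, chr11:12027922-12028221, minus strand: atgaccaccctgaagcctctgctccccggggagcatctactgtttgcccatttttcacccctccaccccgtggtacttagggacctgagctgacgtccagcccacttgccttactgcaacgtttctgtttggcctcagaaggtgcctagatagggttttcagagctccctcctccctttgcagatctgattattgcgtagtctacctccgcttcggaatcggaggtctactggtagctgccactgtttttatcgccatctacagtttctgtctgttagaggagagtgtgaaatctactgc

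The Plagl1 window holds 26 CpG and 1 such hexamer. The outer Grb10 window holds 45 CpG and 1 hexamer, and the inner one 9 CpG and 0 hexamers. The median over 32851 promoter windows was 7 CpG, and 26.5% had 20 or more. Of 15 windows that the table holds for 8 of the 10 genes, 4 had 20 or more CpG and 6 had the hexamer, beside 11.6% of all windows. Of those 6, 2 are Mest windows that overlap almost wholly. The match is a description of letters, and the labels do not say which start the array probes read. H19 and Cdkn1c have no entry in the table.

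Tissues that the piece could hold moved with some arrays. The summed intensity of 8 liver marker genes was 33700 in knockout replicate 1 and 10200 to 13300 in the other 5 arrays. Fetal liver is known for high Igf2, H19 and Dlk1. In knockout replicate 1 Igf2 read 13.94 and Dlk1 11.04 at its brightest probe, both inside the range of the other arrays. The second Dlk1 probe read 8.49 there, against 7.74 in wildtype replicate 1. The H19 probe that was not saturated read 11.06, against 12.53. Skeletal muscle markers, 10 genes, summed to 5230 to 13000 in the knockout arrays and 7110 to 24200 in the wildtype arrays, lower in the knockout array of every pair. Intestinal epithelium markers, 6 genes, were higher in the knockout array in pairs 2 and 3, at 59400 against 49300 and 62500 against 42900. In pair 1 they were lower in the knockout array, at 52400 against 56400. Stomach and pyloric mesenchyme markers, 7 genes, were lower in the knockout array in pairs 2 and 3, at 7750 against 10700 and 7460 against 9350. They were higher there in pair 1, at 6740 against 4340. The part of tissue content in the values of the imprinted genes was not tested, and fewer cells of a type cannot be told apart from less RNA per cell. The other lists spanned 80200 to 102000 for 8 visceral smooth muscle genes, 95800 to 142000 for 8 gastric epithelium genes, 1020 to 2910 for 5 pancreas genes, 912 to 1340 for 6 cartilage genes and 951 to 1290 for 4 erythroid genes.

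**Figure D4:**
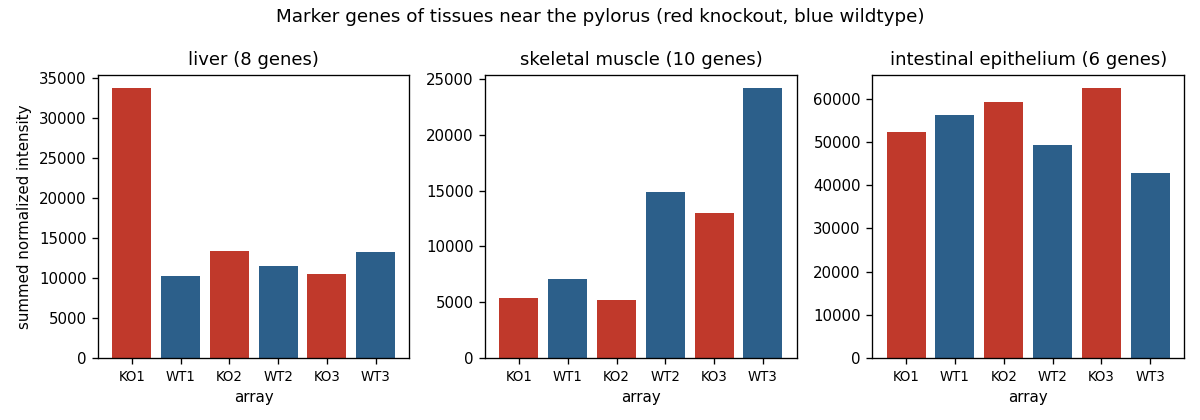
Summed normalized intensity on a linear scale (y axis) of liver, skeletal muscle and intestinal epithelium marker genes on the 6 arrays (x axis, KO knockout in red and WT wildtype in blue, with the replicate number). Liver markers reached 33700 in knockout replicate 1, and skeletal muscle markers were lowest in knockout replicate 2, at 5230.

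The genes around and behind these 10 were read from further lists. Of 57 other imprinted genes 47 were tested, and 0 passed in either direction with limma (0 at an unadjusted p under 0.05). Of these 21 were higher and 26 lower, with a median of -0.02 and a range of -0.32 to 0.28. Slc22a18, a transporter gene of the same chromosome 7 cluster as Cdkn1c, differed by 0.28 (SE 0.14, limma adjusted p = 1) and was higher in each pair, at 0.44, 0.19 and 0.21. Inpp5f, a phosphoinositide phosphatase gene, differed by -0.32 (SE 0.16) and was lower in each pair, and Zrsr1 differed by 0.24 (SE 0.19). A value lower in the knockout array of all 3 pairs was found in 11.6% of genes. The 10 listed genes within 1.5 Mb of Igf2, H19 or Cdkn1c had a median of -0.03, 5 higher and 5 lower, and 0.04 in pair 2. The 4 near Dlk1 or Meg3 had -0.02, and 0.02 in pair 2. Single neighbours went both ways in pair 2: Nap1l4 was at 0.84 and Osbpl5 at 0.68, and Ascl2 was at -0.38 and Rtl1 at -0.45. These 4 were chosen after their values were seen.

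Of 30 genes of IGF and insulin signalling 25 were tested and 0 passed in either direction, with 1 higher at an unadjusted p under 0.05. That gene was Igfals, whose product carries IGF complexes in blood, at 0.41 (SE 0.17, unadjusted p = 0.0461, limma adjusted p = 1), with 0.04, 0.64 and 0.54 in the pairs. The median of the list was -0.04, with 10 higher and 15 lower. The insulin receptor gene Insr differed by 0.22 (SE 0.19) and the IGF1 receptor gene Igf1r by -0.16 (SE 0.22). Of 18 genes that read or keep imprints 14 were tested and 0 passed (0 at an unadjusted p under 0.05), with a median of -0.02. Ehmt2, a histone methyltransferase gene, differed by 0.20 (SE 0.20), the maintenance DNA methyltransferase gene Dnmt1 by -0.27 (SE 0.33), and its partner Uhrf1 by 0.21 (SE 0.26). Of 6 other CDK inhibitor genes, 5 were tested and 0 passed (0 at an unadjusted p under 0.05). Cdkn2b differed by 0.17 (SE 0.13), Cdkn2a by -0.24 (SE 0.31) and Cdkn2c by -0.24 (SE 0.39).

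The genes whose profiles over the 6 arrays lay closest to the 2 imprinted genes of widest span among the 6 above were found by root mean square distance after centring. For Plagl1, with a span of 0.86, they were Ccdc69 at 0.029, Mal2 at 0.035 and Rbm46 at 0.039 log2 units. For Cdkn1c, the span of 0.81 and the distances rest on the saturated value of knockout replicate 1, so both are uncertain. Its nearest profiles were Olfr513 at 0.058, Nr0b2 at 0.067 and Abhd11os at 0.069. The Cdkn1c neighbours differed between the groups by 0.34, 0.33 and 0.36, which their choice by likeness fixes.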

How the data were processed

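Total RNA of 6 embryos was hybridised to CodeLink Mouse Whole Genome arrays. The authors' files hold, per the file headers, spot mean and local background intensity, and their normalized intensity is background-subtracted and divided by the array median. The deposited value table holds intensity on that linear scale, with column medians of 0.997 to 1. Later steps by the authors are not recorded in the labels.

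Spot means were corrected with normexp (offset 50), spots flagged masked, irregular or contaminated were set missing, and the 34967 gene probes were quantile normalized and taken to log2. Testing required a value above background on at least 3 arrays, and any value on at least 2 per group (30207 probes, 16764 genes, each at its brightest probe). Names came from the platform annotation, updated through RefSeq (GRCm38.p6): 22114 probes had 1 symbol, 681 several and 12172 none here. Groups were compared with limma 3.58.1 in R 4.3.3 (lmFit, eBayes, Benjamini-Hochberg, threshold 0.05). On simulated data for this comparison (15667 genes) it called 36 of 100 genes changed by 1 log2 unit and 99 of 100 changed by 3. It also called 8 unchanged genes. The simulated noise was independent between arrays, without litter or report batch, so recovery on the real arrays may differ. The number of arrays limits the precision.

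Named genes are the 10 imprinted genes, Nkx3-2, the 3 nearest profiles of the 2 imprinted genes of widest span, and the 3 genes of each further list with the largest moderated t-statistic. The members and lists were chosen with earlier results of these data known. The comparison of pair 1 with pairs 2 and 3, the search for the lowest array, the grouping of list genes by distance and the promoter count were added after the values were seen.

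The digits of the animal codes were taken to pair samples. After subtraction of the group mean, arrays paired in this way correlated across genes (r 0.784 in pair 1, 0.409 in pair 2, 0.576 in pair 3). The crossed correlations between pairs 2 and 3 were 0.536 and 0.636. Both were higher than the paired 0.409, and 0.636 was also higher than the paired 0.576. Pair 1 is also a report batch of its own. The correlations therefore do not settle which arrays are littermates, and the pairing rests on the digits. Alternatives were 18 other settings of correction, scaling, filter, probe choice, block, weights and left-out arrays.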

Additional observations from a re-analysis of the deposited data

How the results depend on the processing

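Under the 18 alternatives 0 genes passed the threshold except with array weights, which called 677 genes, 462 of them higher, from weights between 0.166 (wildtype replicate 1) and 6.96 (wildtype replicate 3). The cause was not tested. Array weights also called 1 gene of IGF and insulin signalling, Igfals, at 0.55 (limma adjusted p = 0.0185), and no imprinted growth gene, the lowest adjusted p being 0.0807 for Cdkn1c. Of 124 recomputed differences of the 7 imprinted growth genes, 113 kept their sign, 11 turned and 0 passed. All settings reuse the same arrays, so these counts are not separate evidence. The series matrix values and the authors' per-sample values gave the same differences for these genes. Igf2, Igf2r, Cdkn1c and Grb10 kept their sign in all that could be run, within 0.04 to 0.31, 0.02 to 0.44, 0.19 to 0.53 and -0.56 to -0.09. The -0.09 of Grb10 was without wildtype replicate 2, where its brightest probe could not be fitted and its second probe stood in. Plagl1, at -0.06, became 0.02 with median scaling, 0.01 with the series matrix values and with the authors' per-sample values, 0.02 within pairs 2 and 3 and 0.11 with array weights. With array weights Dlk1 became -0.20, Meg3 -0.06 and Nkx3-2 -0.11, and within pairs 2 and 3 Uhrf1 became -0.07. The causes were not tested. Leaving out 1 array in turn gave 0 called genes throughout, medians of 0.03 to 0.23 (the highest over 6 genes, without wildtype replicate 3 and so without Grb10; 0.03 to 0.20 over all 7), and ranges that reached 0 or turned for Plagl1 (-0.24 to 0.20), Dlk1 (0.00 to 0.28), Meg3 (0.00 to 0.34), Nkx3-2 (-0.02 to 0.23), Igf1r (-0.29 to 0.04), Uhrf1 (-0.07 to 0.44) and Cdkn2c (-0.58 to 0.09). Grb10 could not be fitted without wildtype replicate 3, nor with the mean of its probes. The median over the 7 genes was 0.28 with median scaling, where that of all genes was 0.02 and of bright genes 0.09. A block for litter pair (replicate block) left the median at 0.14 with 0 genes past the threshold, with 760 in place of 189 genes at an unadjusted p under 0.05. Grb10 then was -0.20 (SE 0.15), and no other call changed. When 1 array was left out, between 54 genes (wildtype replicate 3 absent) and 1080 genes (wildtype replicate 1 absent) had an unadjusted p under 0.05. Saturation of H19 and of Cdkn1c in 1 array, and the dim Peg3 probe, limit what signal strength can show.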
